A study of Mus musculus with 6 samples.

Results

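The integrins and the core proteins of focal adhesions were followed as 38 named genes, matched by symbol to the identifiers in the expression tables, out of 19033 genes with an intact row. They comprise 17 alpha subunit genes, 8 beta subunit genes, the integrin-like gene Itgbl1 and 12 genes for talins, kindlins and the kinase and adaptor proteins on the inner side of the membrane. RNA was sequenced in 6 libraries from lungs of C57/BL6 mice, 3 from old and 3 from young animals, 1 library per mouse. All 6 mice had received an acid injury, so the comparison of old with young was made within injured lungs. The labels call the cells vascular endothelial cells, while the protocol speaks of homogenized tissue and names no cell isolation, and it gives no ages in months and no sex. Intact values were held by 31 of the 38 genes. For Itgb3, Itgb5, Itgb8, Fermt3, Parva and Vasp no row carried the identifier, and Itga9 had cells that were unreadable or failed the check on values, so these 7 are not analysed here.

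Integrins are paired alpha and beta chains that span the membrane and hold a cell to collagens, laminins, to proteins with the RGD motif such as fibronectin, or to other cells. Talin and kindlin bind the beta chain's tail to switch the receptor on, and the complex of ILK, PINCH and parvin, the kinase FAK, paxillin, zyxin and VASP join the tail to actin and to signalling. Endothelial cells rest on laminin and collagen IV through beta1 integrins, whereas leukocytes use beta2 and beta7 integrins to cross the vessel wall.

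Levels are given in FPKM, fragments scaled for gene length and for the library's total, and the depth implied by the values was between 11381122 and 17931463 fragments. The labelled cell type was checked against markers. Endothelial markers were lower in the old mice, with a summed level of 45.7 to 161 FPKM against 559 to 1526 FPKM in the young mice over 13 intact genes of 15. All 13 were lower in every old library than in any young one, against 16.7% of all tested genes. In the limma test described below, 11 of 13 fell at an adjusted p of 0.05, against 2.03% of all tested genes, and 2 did not pass. The defining endothelial genes Pecam1 and Cdh5 were at 3.73 to 7.90 and 1.75 to 8.84 FPKM in the old mice, while young mice had 40.0 to 111 and 59.2 to 75.0 FPKM. Fibroblast markers were at 2103 to 4886 FPKM among old and 109 to 212 FPKM in young libraries, summed over 7 intact genes of 10. Neutrophil markers, summed over 8 of 10, reached 23818 and 24300 FPKM for young mice 2 and 3 and stood at 54.8 FPKM for young mouse 1 and 325 to 928 FPKM in the old mice. In whole tissue or mixed cells, fewer cells of a type and less RNA per cell cannot be told apart.

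Of the 31 intact genes, 25 had a mean of at least 1 FPKM over the 6 libraries and were tested together with all other such genes, 10010 in total, with limma on log2(FPKM + 1). At an adjusted p of 0.05, 2 of the 25 rose in the old mice, against 2.95% of all tested genes that rose, and these were Itgbl1 and Fermt1. None of the 25 fell by limma, against 2.03% of all genes tested. At an unadjusted p of 0.05, 2 of the 25 were higher and 8 lower, against 1127 and 1188 of all 10010. Single groups below hold few tested genes, and their unadjusted counts are to be read beside these all-gene counts. Calls in either direction made up 4.98% of all tested genes. The median log2 fold change was -0.46 over the 25 genes and -0.01 over all 10010. Old and young values did not overlap for 11 of the 25 (44%), 2 with old mice higher and 9 with old mice lower. Across all tested genes the share was 31.1%, with 14.5% higher and 16.7% lower in the old mice. The 25 were tested because they passed the filter on the mean of all libraries, and the 6 genes under it are given by their values alone.

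**Figure D1:**
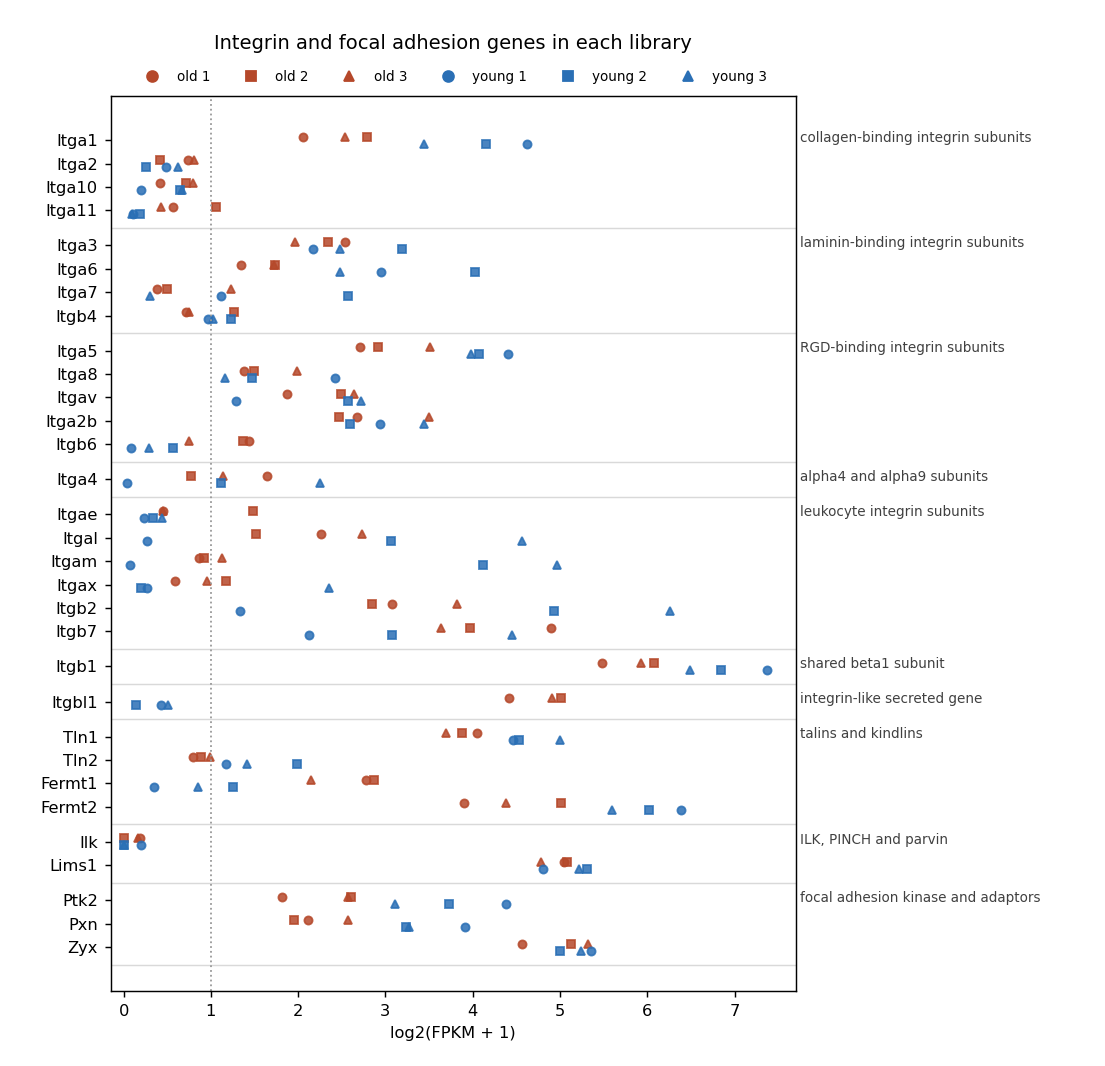
Level of each of the 31 intact genes in each library, as log2(FPKM + 1) on the horizontal axis, grouped by role, with old mice in red above young mice in blue and the mouse number as the marker shape. The dotted line marks 1 FPKM in a single library. Itgbl1 separates the groups most widely, and the 3 old libraries of Itga1, Itga5, Itga6, Itgb1, Tln1, Tln2, Fermt2, Ptk2 and Pxn all lie to the left of the young ones.

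Itgbl1 carried the largest difference among the tested members. The gene encodes a secreted protein built of repeats like those in the stalk of integrin beta chains, without the membrane span and the tail that bind talin, so it is no adhesion receptor itself. It lies on chromosome 14 at 123659971 to 123975618 (GRCm38, plus strand). Itgbl1 was at 20.4, 31.3 and 29.0 FPKM for old mice 1, 2 and 3 and at 0.347, 0.107 and 0.428 FPKM for young mice 1, 2 and 3. Behind these levels stood 1142, 1505 and 2202 fragments in the old libraries and 26, 7 and 27 in the young, and the groups were far apart. The means were 26.9 ± 5.73 and 0.294 ± 0.167 FPKM (SD, n = 3 each), a ratio of 91.5. On the log2(FPKM + 1) scale, which understates such a change because the young level is low, it rose by 4.42 ± 0.25 (SE, limma adjusted p = 0.00269), and it was called in 17 of 17 fits. With a pseudocount of 0.01 the difference was 6.65 ± 0.55 (limma adjusted p = 0.00597). Beside it, 7 of 7 tested fibroblast markers rose with a median log2 fold change of 4.13, and Col1a1 went from 11.2 ± 1.82 to 216 ± 62.9 FPKM (SD, n = 3 each). The part of fibroblasts in the Itgbl1 value was not tested.

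Of the kindlin genes Fermt1 rose, Fermt2 had lower values in the old mice and did not pass, and Fermt3 is not analysed here. Fermt1, kindlin-1, is best known from epithelia and keratinocytes, and Fermt2, kindlin-2, is the widespread form that also serves endothelium and fibroblasts. Fermt1 (chromosome 2, 132904389 to 132945906) was at 5.87, 6.29 and 3.43 FPKM for old mice 1, 2 and 3 and at 0.277, 1.38 and 0.812 FPKM for young mice 1, 2 and 3. All 3 old values lay above the young ones, with fragments of 351 to 442 against 28 to 122. It rose by 1.78 ± 0.33 (SE, limma adjusted p = 0.0341), and was called in 6 of 16 fits. With a pseudocount of 0.1 the difference was 2.68 ± 0.57 (limma adjusted p = 0.0518). The call was lost without any single old mouse (adjusted p = 0.106, 0.0986 and 0.0714 by limma) and without the first or the last of the young mice, numbers 1 and 3 (0.0704 and 0.0802). Of the airway epithelial list, 3 of 4 tested genes rose as well (Krt8, Krt18 and Epcam). The list's 5 intact genes of 8 summed to 1238 to 1556 FPKM among old and 111 to 257 FPKM in young libraries. Most of that sum came from the keratins Krt8, at 461 to 562 against 47.3 to 103 FPKM, and Krt18, at 648 to 874 against 57.7 to 128 FPKM, which are not particular to airways. The airway genes Scgb1a1, Krt5 and Krt14 had no intact row and Foxj1 was under the filter. Mesothelial markers, whose cells also make these keratins, summed to 171 to 456 FPKM among old and 9.33 to 40.8 FPKM in young libraries over 6 genes of 6, and 3 rose. Alveolar type 1 markers (6 intact of 7) summed to 20.3 to 34.8 FPKM among old and 2.95 to 14.3 FPKM among young mice. Of their 3 tested genes, 1 rose by limma. This was Pdpn, which gave most of the old sums, at 16.3 to 23.2 against 1.58 to 6.52 FPKM. Ager overlapped, at 1.80 to 4.10 among old and 1.24 to 6.35 FPKM among young mice. Alveolar type 2 sums (6 intact of 7) overlapped, at 51.5 to 61.2 FPKM among old and 5.63 to 63.2 FPKM among young mice. Nearly all of the old sums was Sftpd, at 51.0 to 60.6 FPKM, while Sftpb and Lamp3 were at 0 in every old library. Of the type 2 list, 0 of 2 tested genes passed by limma. The part of epithelial or mesothelial cells in the Fermt1 value was not tested.

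Fermt2 (chromosome 14, 45458795 to 45530118) was the more abundant kindlin in every library, at 13.9, 31.2 and 19.8 FPKM for old mice 1, 2 and 3 and 82.4, 63.9 and 47.3 FPKM for young mice 1, 2 and 3. The groups did not overlap, and the log2 fold change was -1.57 ± 0.36 (SE, limma adjusted p = 0.0577, range over its fits 0.0451 to 0.154), so it did not pass. Within a library, Fermt1 made up 29.6%, 16.8% and 14.8% of the summed FPKM of both kindlins for old mice 1, 2 and 3. In young mice 1, 2 and 3 its share was 0.335%, 2.11% and 1.69%. The shares did not overlap, with a two-sided exact permutation p of 0.10, the smallest that 3 mice against 3 allow. That outcome was fixed in advance, because all old values were higher for Fermt1 and lower for Fermt2. The p of the shares thus adds nothing to the values of the 2 genes. The shares and ratios within a library in this text were chosen after the values were seen.

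Talin-1 (Tln1), the main talin outside muscle and brain, was at 15.5, 13.7 and 11.9 FPKM among old and 21.1, 22.2 and 31.0 FPKM in the young mice, again without overlap. Its log2 fold change of -0.80 ± 0.24 did not pass (SE, limma adjusted p = 0.114). Tln2, the second talin, was far lower, at 0.732 to 0.979 FPKM among old and 1.26 to 2.95 FPKM among young mice (log2 fold change -0.64 ± 0.29, limma adjusted p = 0.243). Tln2 gave 4.52% to 7.59% of the talin FPKM among old and 5.13% to 11.7% in young libraries, so those shares overlapped. Of the talin and kindlin genes, 1 of 4 tested thus rose, 0 fell by limma and 3 did not pass, 2 of them lower at an unadjusted p of 0.05.

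The bases before the start sites of 5 genes are shown because these genes stand for the patterns described here: the pair that rose (Itgbl1, Fermt1), the other kindlin and beta1 with lower values in the old mice (Fermt2, Itgb1), and the myeloid alpha chain Itgam. The sequences are from RefSeq on build GRCm38.p6, 5′ to 3′ on the gene's strand, for up to 250 bases and stopping where the GENCODE gene starts. Capitals mark matches on either strand to a PU.1 core (GAGGAAG), a TEAD site (GGAATG), an AP-1 site (TGANTCA), a GC box (GGGCGG) or the CArG box bound by SRF. The windows shown are chr14:123659890-123659970 (plus) for Itgbl1, chr2:132946037-132946286 (minus) for Fermt1, chr14:45530119-45530315 (minus) for Fermt2, chr8:128685404-128685653 (plus) for Itgb1 and chr7:128062390-128062639 (plus) for Itgam.
Itgbl1: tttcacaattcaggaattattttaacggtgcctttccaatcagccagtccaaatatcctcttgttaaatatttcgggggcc
Fermt1: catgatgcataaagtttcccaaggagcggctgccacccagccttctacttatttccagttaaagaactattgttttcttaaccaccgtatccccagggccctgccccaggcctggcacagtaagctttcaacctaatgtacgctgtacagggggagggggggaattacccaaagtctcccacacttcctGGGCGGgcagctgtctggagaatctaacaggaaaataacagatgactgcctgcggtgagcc
Fermt2: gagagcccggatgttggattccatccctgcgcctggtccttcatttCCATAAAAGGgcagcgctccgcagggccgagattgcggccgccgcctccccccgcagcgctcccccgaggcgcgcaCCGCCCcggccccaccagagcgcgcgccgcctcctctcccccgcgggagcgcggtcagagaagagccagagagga
Itgb1: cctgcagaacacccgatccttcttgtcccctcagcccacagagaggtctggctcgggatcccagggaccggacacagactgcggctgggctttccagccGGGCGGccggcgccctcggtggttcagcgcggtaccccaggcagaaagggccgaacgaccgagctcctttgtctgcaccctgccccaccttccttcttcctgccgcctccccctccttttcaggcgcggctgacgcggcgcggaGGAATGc
Itgam: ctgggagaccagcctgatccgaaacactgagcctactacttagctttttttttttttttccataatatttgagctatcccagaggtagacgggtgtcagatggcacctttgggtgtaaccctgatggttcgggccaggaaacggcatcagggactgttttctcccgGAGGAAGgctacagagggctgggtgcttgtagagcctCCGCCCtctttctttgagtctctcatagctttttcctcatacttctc

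A window was held by 27 of the 38 genes, 32 windows in all. In its full 250 bases Fermt2 held 1 CArG box and 5 GC boxes at 76% G and C, and Fermt1 held 1 GC box at 52.4%. CArG boxes stood in 1.47% of all 32851 windows and in 2 of the 32, those of Fermt2 and 1 window of Itgb6. Itgam held 1 PU.1 core, starting 84 bases before the start site, a motif found in 10.6% of all windows and in 6 of the 32. Itgb1 held 1 TEAD match (12.6% of all windows) and 1 GC box (32.7% of all windows), and AP-1 matches stood in 6.75% of all windows. Itgbl1 held 1 GC box 26 bases before the RefSeq start site, in the stretch not shown. A match is a run of letters and not a measured binding site.

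Itgb1, the beta1 chain shared by most collagen, laminin and fibronectin receptors, was the most abundant of the intact integrin genes in all 6 libraries. It lies on chromosome 8 at 128685654 to 128733200 and was at 43.7, 66.4 and 60.0 FPKM for old mice 1, 2 and 3 and at 165, 114 and 88.8 FPKM for young mice 1, 2 and 3. Every old value lay below every young one, a log2 fold change of -1.07 ± 0.31 (SE) that missed the threshold (limma adjusted p = 0.103, and 0.0832 to 0.226 over its fits). The endothelial marker Pecam1 was lower by more, at a log2 fold change of -3.44 ± 0.43 (limma adjusted p = 0.0115). The ratio of Itgb1 to Pecam1 FPKM was 7.60 to 11.7 among old and 1.42 to 2.22 among young mice, with a two-sided exact permutation p of 0.10, the smallest possible here.

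Among the collagen-binding alpha chains, Itga1 was the abundant one and the 3 others were under the filter. Itga1, which pairs with beta1 to bind collagen IV, lies on chromosome 13 at 114953096 to 115101964. It was at 3.15, 5.93 and 4.82 FPKM for old mice 1, 2 and 3 and at 23.7, 16.8 and 9.91 FPKM for young mice 1, 2 and 3. No old value reached the lowest young one, and the log2 fold change was -1.61 ± 0.36 (SE, limma adjusted p = 0.0551, range over its fits 0.038 to 0.148), short of the threshold. The one fit of 17 that called it used array weights.

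Itga11, a fibrillar collagen receptor of fibroblasts, was at 0.486, 1.08 and 0.348 FPKM among old and 0.077, 0.138 and 0.0654 FPKM in the young mice. These levels rested on 32 to 63 fragments against 5 to 11, and the groups did not overlap, in the direction opposite to Itga1. Itga2, the collagen receptor chain of platelets and epithelia, ran from 0.334 to 0.754 FPKM among old and 0.199 to 0.541 FPKM among young mice. Itga10, known from cartilage, ran from 0.335 to 0.731 and 0.152 to 0.595 FPKM, so both overlapped. Of the exon bases of Itga10, 33.5% were shared with the gene Gm42957 on the same strand, which makes its level uncertain.

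In the laminin-binding group 0 of 4 tested genes passed by limma, and 1 was lower at an unadjusted p of 0.05. That gene was Itga6, the alpha chain of the main endothelial and epithelial laminin receptors, at 1.54, 2.33 and 2.29 FPKM for old mice 1, 2 and 3 and 6.75, 15.3 and 4.59 FPKM for young mice 1, 2 and 3. Young mouse 2 was the highest and no values overlapped between the groups (log2 fold change -1.56 ± 0.41, SE, limma adjusted p = 0.0793). Itgb4, which pairs with alpha6 in the hemidesmosomes of epithelia, was at 0.636, 1.40 and 0.684 FPKM among old and 0.957, 1.35 and 1.03 FPKM in the young mice. The Itgb4 values overlapped (log2 fold change -0.17 ± 0.27), while the epithelial markers Krt8 and Epcam were higher in each old library than in any young one.

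Itga3, another laminin receptor chain, overlapped too, at 2.91 to 4.80 FPKM among old and 3.51 to 8.10 FPKM among young mice (log2 fold change -0.33 ± 0.32). Itga7, the laminin receptor chain of muscle, stood at 4.96 FPKM for young mouse 2 and at 0.234 to 1.35 FPKM across the other 5 libraries. Young mouse 2 was also the highest library for smooth muscle and pericyte markers, at a summed 1332 FPKM over 7 intact genes of 9, against 68.9 and 69.9 FPKM in the other young mice and 739 to 929 FPKM in the old mice. The part of smooth muscle in the Itga7 value was not tested.

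For the RGD-binding group, 0 of 4 tested genes passed by limma, and 1 was lower at an unadjusted p of 0.05. This was Itga5, the fibronectin receptor chain (chromosome 15, 103344286 to 103366763), at 5.53, 6.54 and 10.4 FPKM for old mice 1, 2 and 3 and 20.2, 15.8 and 14.8 FPKM for young mice 1, 2 and 3. Old mouse 3 came nearest to the young mice without reaching them, and the log2 fold change was -1.11 ± 0.28 (SE, limma adjusted p = 0.0736). Itgav, the alpha chain that pairs with several beta chains to bind vitronectin and latent TGF-beta, was at 2.65, 4.63 and 5.22 FPKM among old and 1.44, 4.93 and 5.61 FPKM in the young mice. Its groups overlapped (log2 fold change 0.14 ± 0.44, SE, limma adjusted p = 0.877), and the sign turned without old mouse 3 or young mouse 1 (-0.01 and -0.31).

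Itgb6, which with alphav forms an epithelial receptor that activates TGF-beta, was under the filter, at 1.71, 1.58 and 0.682 FPKM among old and 0.0635, 0.480 and 0.226 FPKM in the young mice. Old values lay above young ones, on 87 to 161 against 8 to 53 fragments. Itga8, known from smooth muscle and mesangial cells, ran from 1.61 to 2.96 FPKM among old and 1.24 to 4.35 FPKM among young mice. Itga2b, the platelet fibrinogen receptor chain, ran from 4.54 to 10.3 and from 5.03 to 9.85 FPKM. Neither gene differed by more than its error (log2 fold changes -0.06 ± 0.38 and -0.11 ± 0.36). The 6 intact platelet markers of 7, Itga2b among them, summed to 157 to 380 FPKM among old and 88.1 to 940 FPKM among young mice.

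Within each library, the FPKM of the 11 intact alpha chains outside the leukocyte group and Itga2b was summed. The sum was 23.2, 28.5 and 33.0 FPKM for old mice 1, 2 and 3 and 61.8, 69.8 and 46.0 FPKM for young mice 1, 2 and 3. Itgb1 ran at 1.82 to 2.33 times this sum among old and 1.63 to 2.68 times among young mice, an overlap (two-sided exact permutation p of 0.80). Itga5 gave 23.0% to 31.6% of the sum among old and 22.7% to 32.7% among young mice, also overlapping. Itga1 gave 13.6%, 20.8% and 14.6% among old and 38.4%, 24.1% and 21.6% in the young mice, and Itga6 6.65% to 8.17% against 9.99% to 22.0%. Itga11 shares were 1.05% to 3.79% among old and 0.124% to 0.198% among young mice, and those of Itga10 1.45% to 2.26% and 0.246% to 1.29%. None of these 4 overlapped, each at the smallest two-sided exact permutation p of 0.10 possible, among 11 alpha chains compared, so no share could pass 0.05 with or without an adjustment. Itga10 and Itga11 were under the filter. The FPKM of Itga10 itself overlapped, and its shares also reflect the sum, which was lower in every old library. Itga11 was higher and the sum lower in every old library, so its shares could not overlap.

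**Figure D2:**
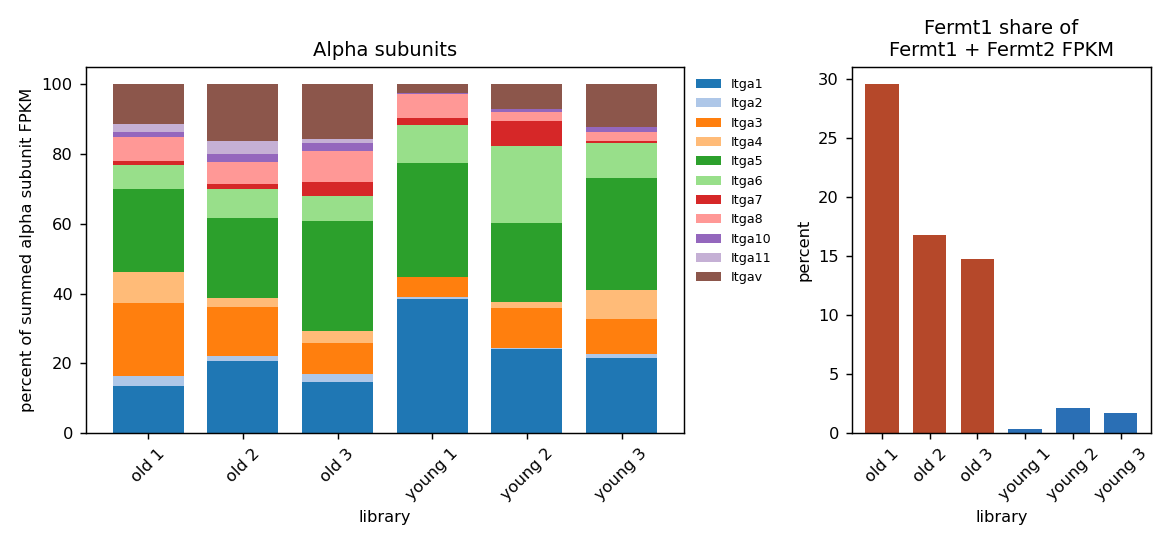
Left, the share of each of 11 alpha chains in their summed FPKM in each library, in percent. Right, the share of Fermt1 in the FPKM of Fermt1 plus Fermt2, in percent, with old mice in red and young mice in blue. Itga1 (dark blue, at the base) is at 13.6% to 20.8% among old and 21.6% to 38.4% among young mice, and Fermt1 is at 14.8% to 29.6% among old and 0.335% to 2.11% among young mice.

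The leukocyte integrins varied widely between libraries of 1 group. Of 5 tested genes, 0 passed by limma in either direction, and 0 reached an unadjusted p of 0.05. Itgb2, the beta chain of the leukocyte receptors LFA-1 and Mac-1, was at 7.41, 6.22 and 13.1 FPKM for old mice 1, 2 and 3 and at 1.53, 29.6 and 75.6 FPKM for young mice 1, 2 and 3. Young mouse 1 was the lowest of all 6 and young mice 2 and 3 the highest, so the groups overlapped (log2 fold change -0.93 ± 1.16, SE). Itgam, the alpha chain of Mac-1 on neutrophils and macrophages, had the same libraries lowest and highest, at 0.813, 0.892 and 1.19 FPKM among old and 0.0562, 16.4 and 30.2 FPKM in the young mice. Its value in young mouse 1 rested on 5 fragments, and 68.7% of its exon bases were shared with the overlapping gene Gm49368 on the same strand, so its level is uncertain.

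The Itgam log2 fold change was -2.09 ± 1.17 (SE, limma adjusted p = 0.327), and without young mouse 1 it fell by 3.57 ± 0.32 (adjusted p = 0.0126 by limma, where 1.17% of tested genes fell). The neutrophil protein gene S100a9 was at 182 to 516 FPKM in the old mice and at 27.1, 11686 and 12541 FPKM for young mice 1, 2 and 3, with the same libraries lowest and highest. Macrophage and monocyte markers, summed over 9 intact genes of 10, were at 911 to 2551 FPKM in the old mice. For young mice 1, 2 and 3 they summed to 189, 3386 and 9998 FPKM, again with these libraries lowest and highest. In every library but young mouse 1, most of this sum was the single gene Lyz2. Lyz2 was at 731 to 1902 FPKM among old mice and at 62.5, 2948 and 8866 FPKM for young mice 1, 2 and 3. Of the intact genes, only Lyz2 and Marco had young mice 2 and 3 highest, and Mrc1 was highest in young mouse 1 (83.4 FPKM). The part of neutrophils or macrophages in the Itgam and Itgb2 values was not tested. Itgal, the alpha chain of LFA-1 on lymphocytes and myeloid cells, was at 3.81, 1.86 and 5.65 FPKM among old and 0.206, 7.34 and 22.7 FPKM in the young mice. Its log2 fold change of -0.46 ± 1.02 became 1.90 against young mouse 1 alone. Itgax, a dendritic cell and macrophage chain, was at 4.12 FPKM for young mouse 3 and at 0.148 to 1.26 FPKM across the other 5 libraries.

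The beta7 chain Itgb7, which serves gut-homing lymphocytes and mast cell progenitors, was at 28.7, 14.7 and 11.4 FPKM among old and 3.37, 7.45 and 20.9 FPKM in the young mice. These values overlapped (log2 fold change 0.95 ± 0.62, SE, limma adjusted p = 0.392). Its partner Itgae, the E-cadherin receptor chain of tissue-resident T cells, was at 1.80 FPKM for old mouse 2, with 0.363 and 0.365 FPKM in the other old mice and 0.172 to 0.352 FPKM in the young. The groups thus lay apart only narrowly, and the gene was under the filter. Old mouse 2 also held 1777 FPKM of T and natural killer cell markers, summed over 8 intact genes of 10, against 4.64 to 275 FPKM elsewhere. Most of that sum was Gzma, a granule protease gene, at 1385 FPKM. The T cell genes Cd3d, Cd3e, Cd3g, Cd4, Cd8a and Trac were also highest in old mouse 2, with Cd3g at 183 FPKM. Of the intact genes on the list, only Nkg7 was higher in old mouse 1 than in old mouse 2 (222 and 161 FPKM). Itga4, which pairs with beta1 or beta7 to bind VCAM1 and MAdCAM1, was at 2.12, 0.704 and 1.20 FPKM among old and 0.0283, 1.16 and 3.76 FPKM in the young mice. Its groups overlapped widely (log2 fold change 0.05 ± 0.57), and the sign turned in 3 fits.

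**Figure D3:**
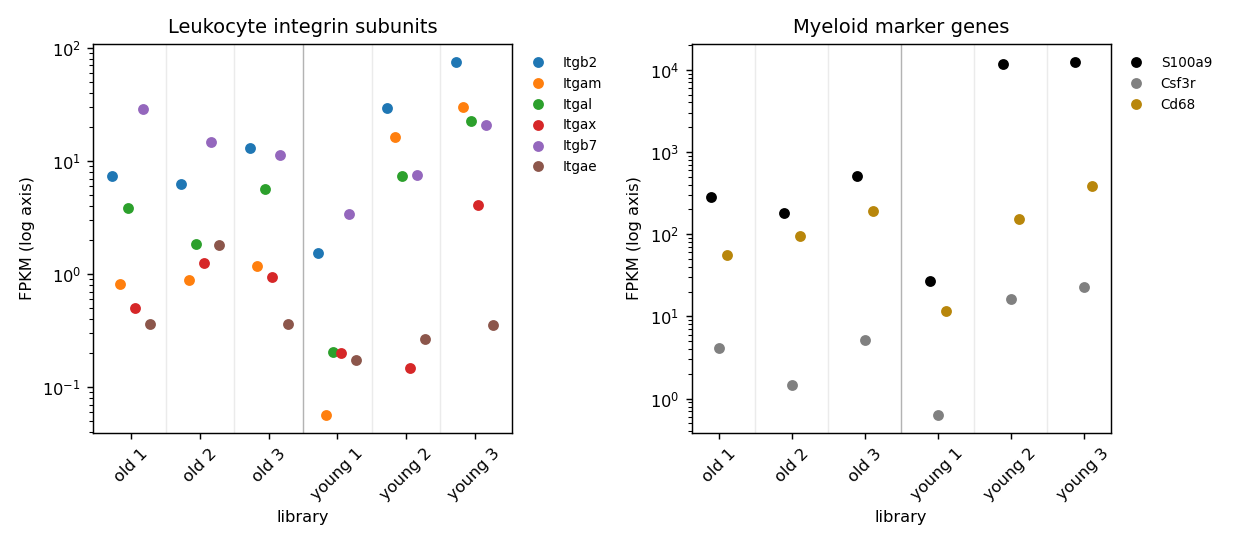
FPKM on a log axis in each library, for 6 leukocyte integrin genes on the left and 3 myeloid marker genes on the right, 1 point per gene and library. Itgb2 and Itgam are lowest in young mouse 1 (1.53 and 0.0562 FPKM) and highest for young mice 2 and 3, as are the neutrophil genes S100a9 and Csf3r, while the macrophage gene Cd68 is lowest in young mouse 1 and highest in young mouse 3 (391 FPKM).

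On the inner side of the adhesion, 0 of 3 tested kinase and adaptor genes passed by limma, and 2 were lower at an unadjusted p of 0.05. Ptk2, which encodes the focal adhesion kinase FAK (chromosome 15, 73205102 to 73423280), was at 2.53, 5.11 and 4.96 FPKM for old mice 1, 2 and 3 and 19.9, 12.3 and 7.61 FPKM for young mice 1, 2 and 3. Pxn, which encodes the adaptor paxillin (chromosome 5, 115506676 to 115555987), was at 3.32, 2.87 and 4.94 FPKM among old and 14.1, 8.40 and 8.62 FPKM in the young mice. Neither gene overlapped between the groups. The log2 fold changes were -1.41 ± 0.39 for Ptk2 and -1.26 ± 0.29 for Pxn (SE, limma adjusted p = 0.0924 and 0.0593). Young mouse 1, the highest for both, was also the library with the most endothelial marker RNA, at 1526 FPKM. Itga1, Itga5, Itgb1 and Fermt2 were highest in that library too. Itga6 and Tln2 were highest in young mouse 2, and Tln1 in young mouse 3, which had the least endothelial marker RNA of the young (559 FPKM). The part of endothelial cells in the values of Itga1, Itga5, Itga6, Itgb1, Tln1, Tln2, Fermt2, Ptk2 and Pxn was not tested.

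For Zyx and Lims1 no difference beyond the error was found. Zyxin, an actin-linked adaptor that gathers at adhesions under tension, was at 22.6, 34.0 and 39.0 FPKM among old and 40.1, 30.9 and 36.7 FPKM in the young mice (log2 fold change -0.20 ± 0.28, SE). Lims1, which encodes PINCH1, was at 32.1, 32.8 and 26.5 FPKM among old and 27.0, 38.8 and 36.1 FPKM in the young mice (-0.14 ± 0.24). Both overlapped between the groups (limma adjusted p = 0.702 and 0.756), and each was more abundant than any tested alpha chain in every old library.

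Ilk, the scaffold of the PINCH and parvin complex, was listed at 0.138, 0 and 0.122 FPKM for old mice 1, 2 and 3 and at 0.144, 0 and 0 FPKM for young mice 1, 2 and 3, from 0 to 7 fragments. Of its exon bases, 89.7% were shared with exons of genes on the opposite strand, Taf10 and Rrp8, and in none of the 30 other intact genes was this share as high. The sources used here do not say whether the counting used strand, so these values give no level for Ilk, a gene that nearly every cell uses.

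**Figure D4:**
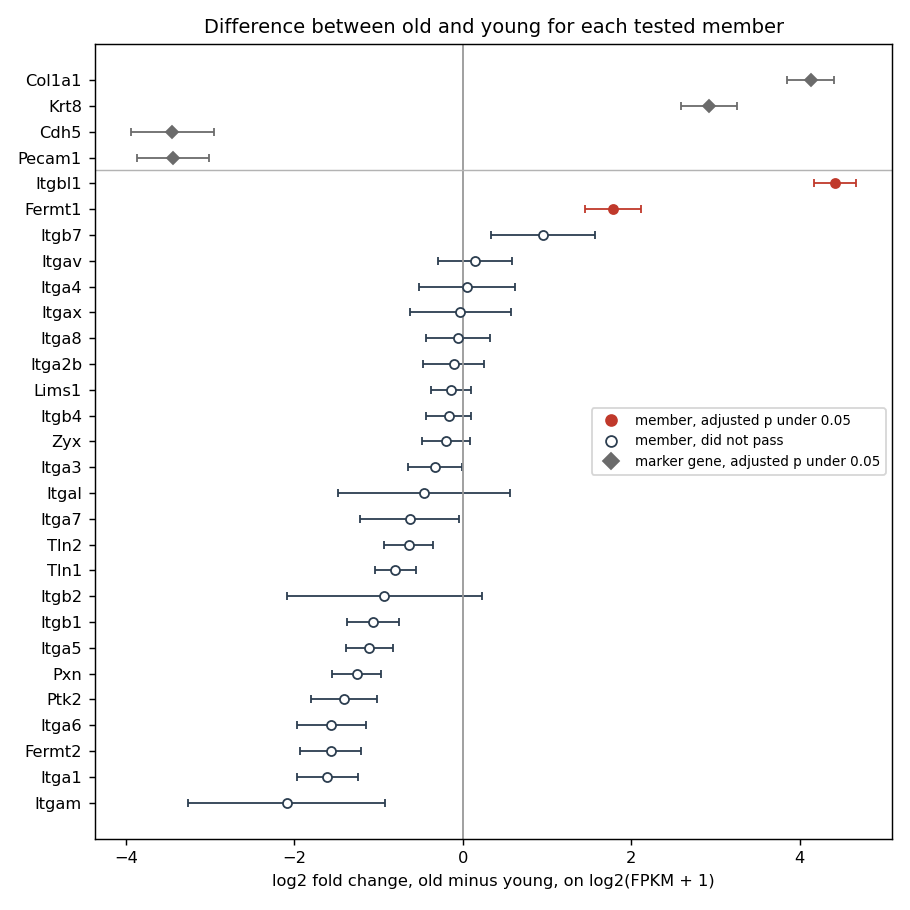
Difference between old and young mice in log2(FPKM + 1), old minus young, with its standard error as the bar, for the 25 tested genes (circles) and 4 marker genes (diamonds). Filled red circles passed an adjusted p of 0.05 by limma: Itgbl1 at 4.42 and Fermt1 at 1.78. Pecam1 and Cdh5 stand at -3.44 and -3.45, further from 0 than any tested integrin or adaptor gene with a lower value in the old mice.

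A wider list of 44 adhesion genes showed how the core's neighbours stood, with 37 intact and tested. Of these, 3 fell, 0 rose by limma and 34 did not pass, so that 8.11% were called, against 2.03% of all tested genes that fell and 4.98% called in either direction. The median log2 fold change was -0.52. At an unadjusted p of 0.05, 1 of the 37 was higher and 11 were lower, against 1127 and 1188 of all 10010 tested genes. Parvb, the beta-parvin that binds ILK, was at 0.651, 1.73 and 2.02 FPKM among old and 6.91, 9.29 and 8.31 FPKM in the young mice and fell by 1.93 ± 0.29 (SE, limma adjusted p = 0.0213). Arhgef7, an exchange factor for Rac and Cdc42, fell by 1.21 ± 0.23, from 3.65 ± 0.780 FPKM in young to 0.988 ± 0.0518 FPKM in the old mice (SD, n = 3 each, limma adjusted p = 0.0363). The call for Arhgef7 was lost on leaving out any 1 of the 6 libraries (limma adjusted p = 0.0633 to 0.108), and that for Parvb without old mouse 2, old mouse 3 or young mouse 3 (0.0588 to 0.0682).

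Of 36 genes for integrin ligands and counter-receptors, 25 were intact and 23 tested, and 3 rose, 2 fell and 18 did not pass. Calls made up 21.7% of the 23, against 4.98% of all tested genes (2.95% higher and 2.03% lower), and Col1a1 is also on the fibroblast marker list. Col1a1 rose by 4.13 ± 0.28 (SE, limma adjusted p = 0.00269), and Postn, whose product periostin binds alphav integrins, by 4.0 ± 0.30. Spp1, which encodes the RGD protein osteopontin, was at 2557, 1573 and 1637 FPKM among old and 155, 539 and 370 FPKM in the young mice. It rose by 2.57 ± 0.49 (limma adjusted p = 0.0363), while Itgav, part of several of its receptors, differed by less than its error. Jam2, a junction protein that also binds alpha4beta1, fell by 3.85 ± 0.55 (adjusted p = 0.0176 by limma). Lrrc32, which holds latent TGF-beta at the cell surface for integrins to release, was at 3.16, 7.72 and 4.34 FPKM among old and 39.8, 20.8 and 16.2 FPKM in the young mice, and fell by 2.10 ± 0.42 (adjusted p = 0.0392 by limma). The Lrrc32 call was lost without any 1 library (limma adjusted p = 0.0586 to 0.122), the Spp1 call without young mouse 3 or any old mouse (0.0775 to 0.106) and the Jam2 call without old mouse 3 (0.0657). At an unadjusted p of 0.05, 7 of the 23 ligand genes were higher and 3 lower, against 1127 and 1188 of all 10010 tested genes. The ligand list's median log2 fold change was -0.01, the same as over all tested genes.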

How the data were processed

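RNA from 6 lung libraries was sequenced after an Illumina TruSeq preparation, per the labels' protocols. The authors deposited 1 table per library of FPKM values, and no counts were used here. CASAVA 1.7, Bowtie 0.12.2 and the genome build mm8 are named, with no role, per the submitters' processing notes (the sources used here do not give the counter, strand setting or annotation). Positions are from GENCODE M21 (GRCm38), whose exon lengths matched 78.85% of kept genes, and not those of Itga1, Itga2, Itga5, Itga7, Itgb7, Tln2, Fermt2 and Ptk2. The tables were damaged as received. Kept rows had a known, unique identifier and 6 readable values under 1000000 that were whole fragments for 1 gene length in all libraries (tolerance 1e-06 fragments). This left out 22.99% of 24720 rows. The 18 unnamed columns per table were not used. Rows of 1 symbol were summed. Genes averaging 1 FPKM or more were fitted in R 4.3.3 by limma 3.58.1, on log2(FPKM + 1) values (eBayes with a trend, two-sided, Benjamini-Hochberg over all tested genes). The procedure was run on simulated data with equal noise for every gene, which does not cover the unequal spread seen here. Replicates are separate mice per the labels. The members, gene lists and tests were chosen with earlier results of these data known. Every intact member is named; from the wider lists, up to 4 genes past the threshold per list and direction, of which 1 is not reported here. Csf3r, Cd68, Epcam, Krt18, Foxj1, Gzma, Nkg7, Cd3d, Cd3e, Cd3g, Cd4, Cd8a and Trac were named after their values were seen. So were Lyz2, Marco, Mrc1, Pdpn, Ager, Sftpd, Sftpb and Lamp3. Alternatives covered pseudocounts, filters, scalings, variance models, array weights, a block on the mouse number and leaving out libraries. Fragment numbers cover counting error only and may contain a scaling factor.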

Additional observations from a re-analysis of the deposited data

How the results depend on the processing

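Of 382 refits of single members, 345 kept direction and side of the threshold, 10 lost the call (each of them for Fermt1), 3 gained one and 24 changed sign, over 10 members none of which was called in the fit of all 6 libraries. The count of members called was 2. It became 1 with pseudocounts of 0.1 and 0.01, without a filter, at a mean FPKM of 5 and with the replicate block. The count was 4 with array weights (which added Itga1 and Fermt2), and 1 to 2 when 1 library was left out. Without young mouse 1 the 2 were Itgbl1, higher in the old mice, and Itgam, lower, while Fermt1 lost its call. Across all genes the count of 498 became 323 at a pseudocount of 0.01, 223 without a filter, 292 at a mean FPKM of 5, 126 with the replicate block and 192, 134 and 84 without old mouse 1, 2 or 3, and 262, 395 and 196 without young mouse 1, 2 or 3. The 8 adhesion and ligand genes became 4 without a filter, 5 at a mean FPKM of 5, 2 with the replicate block and, without old mouse 1, 2 or 3, 4, 3 and 2, and 5, 5 and 3 without young mouse 1, 2 or 3. Sign changes with array weights were Itga2b 0.07, Itga4 -0.19, Itga8 0.17 and Itgax 0.15; against young mouse 1 alone Itga3 0.11, Itgal 1.90, Itgb2 1.90, Lims1 0.16 and, outside the members, S100a9 3.41; at pseudocounts of 0.1 and 0.01 Itgax 0.48 and 0.73, and at 0.01 Itgal 0.05. Leaving out 1 library gave ranges of -0.42 to 0.11 for Itga2b, -0.50 to 0.61 for Itga4, -0.33 to 0.30 for Itga8, -1.64 to 0.51 for Itgal, -0.31 to 0.40 for Itgav, -0.40 to 0.13 for Itgax, -2.35 to 0.11 for Itgb2 and -0.35 to 0.03 for Zyx. The cause of these changes was not tested. The labels state no pairing by mouse number. Deviations of same-numbered mice correlated at -0.094, -0.003 and 0.01, and 0 of 6 libraries matched best with their own number. With 3 mice per group this cannot exclude a pairing. With that block Itgbl1 kept its call, and Fermt1 lost it (adjusted p = 0.0866). Both scalings moved the median of all genes to between -0.010 and 0.011. Low fragment numbers limit the precision of genes such as Itga11, with 5 to 11 fragments in each young library.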
